A study of Homo sapiens with 8 samples.

Results

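Aminoacyl-tRNA synthetases join each amino acid to the tRNAs that carry its anticodon, and every protein made in the cell depends on them. The genes described here were chosen by symbol: the family names of the synthetases ending in ARS with an optional digit, the joint glutamate and proline enzyme EPRS1, both subunits of the phenylalanine enzyme (FARSA and FARSB), and the scaffold genes AIMP1, AIMP2 and EEF1E1. A probe set that names 1 gene was used for 37 of them, out of 18417 genes measured in all. AIMP2 and EEF1E1 were not analysed here. The 37 comprise 20 cytosolic enzymes, 16 mitochondrial enzymes, whose symbols end in 2, and the scaffold AIMP1.

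RNA was measured on 8 microarrays, 2 in each of 4 groups of human ovarian carcinoma cells. The groups were untreated A2780CP20, A2780 given temsirolimus for 24 h, A2780 given temsirolimus for 48 h, and untreated A2780. A2780CP20 is known as a derivative of A2780 kept under cisplatin selection, and temsirolimus blocks mTORC1, a kinase complex that promotes protein synthesis. All cells grew in RPMI medium with fetal bovine serum. The temsirolimus stock was in DMSO. The sources used here give no dose and do not say whether untreated cells got vehicle, and each group comes from a single line. The labels do not say whether the 2 arrays of a group came from separate cultures. The p-values therefore reflect the spread between these arrays alone, which could be technical.

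In the cytosol, several synthetases (among them those for leucine, isoleucine, methionine, glutamine, lysine, arginine, and the joint glutamate and proline enzyme) are held in a multisynthetase complex by AIMP1, AIMP2 and EEF1E1, while the others work alone or as dimers. Mitochondria have their own set of enzymes, encoded in the nucleus, for the tRNAs of the mitochondrial genome. GARS1 and KARS1 each encode both a cytosolic and a mitochondrial form. Many cytosolic synthetase genes are known targets of ATF4, the transcription factor of the amino acid response, whose translation also depends on mTORC1. ATF4 binds with C/EBP partners to a composite element with the core letters TGATGNAA.

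Those letters were searched on both strands in RefSeq promoter windows (GRCh38.p14, 250 bases before to 50 bases after each annotated start) and found in 8 of the 31 genes with a window. This is 25.8% of them, against 4.46% of all 27305 genes with a window (1217 genes). The 8 were 7 of 16 cytosolic enzymes and 1 of 14 mitochondrial ones. Each stretch of 30 bases is printed on the strand of its gene with the matching letters in capitals, because the changes of these genes are compared below with those of the other cytosolic genes. A match of letters does not show that a factor binds there.
GARS1: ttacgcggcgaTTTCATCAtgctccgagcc
MARS1: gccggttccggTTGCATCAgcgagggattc
CARS1: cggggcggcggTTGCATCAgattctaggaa
NARS1: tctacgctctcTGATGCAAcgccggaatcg
TARS1: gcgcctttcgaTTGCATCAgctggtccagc
IARS1: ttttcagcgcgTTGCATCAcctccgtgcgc
AARS1: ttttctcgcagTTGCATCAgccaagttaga
YARS2: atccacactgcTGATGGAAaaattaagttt
They lie at chr7:30594834-30594863 (plus strand) for GARS1, chr12:57488053-57488082 (plus) for MARS1, chr11:3057407-3057436 (minus) for CARS1, and chr18:57621804-57621833 (minus) for NARS1. Those of TARS1, IARS1, AARS1 and YARS2 lie at chr5:33440956-33440985 (plus), chr9:92293692-92293721 (minus), chr16:70289675-70289704 (minus) and chr12:32756076-32756105 (minus). Counted from the annotated start, the letters began between positions -33 and 15 in 6 of the 7 cytosolic genes, and at position -187 in AARS1. The same 8 letters, TTGCATCA, were found in AARS1, CARS1, IARS1, MARS1 and TARS1. NARS1 holds them on the opposite strand, where they read TGATGCAA on the strand of the gene.

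Another motif, the E-box CACGTG, was found in 4 of the 31 genes (CARS2, EARS2, IARS1 and MARS2), which is 12.9%, against 8.77% of all genes with a window. It is shown for EARS2, the mitochondrial enzyme for glutamate, because EARS2 was called higher both in A2780CP20 and at 24 h. The stretch lies at chr16:23557349-23557376 on the minus strand.
EARS2: agggagaagccCACGTGtgctattccat
HARS1 and HARS2, the cytosolic and mitochondrial enzymes for histidine, are transcribed away from each other from starts with 84 bases between them. The bases between the starts (chr5:140691371-140691454, plus strand) are shown because these neighbours moved in opposite directions in A2780CP20 and the same way at 24 h.
HARS1-HARS2: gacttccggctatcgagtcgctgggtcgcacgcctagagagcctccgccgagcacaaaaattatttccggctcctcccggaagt

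Values below are log2 intensities as deposited, and changes are log2 differences between group means with the standard error of the fit. Array medians lay between 6.66 and 6.72. The 37 genes were bright, from 7.26 to 12.96, and none fell below the lower quartile of any array. Calls are those of limma's moderated test at an adjusted p (Benjamini-Hochberg over the 18417 genes) below 0.05. Both arrays labelled 24 h stood apart from the rest: their Pearson correlations with the other 6 arrays, across genes, were 0.950 to 0.952, against 0.979 to 0.996 between the other groups and 0.991 to 0.997 within groups. All results keep the arrays under their labels. Whether the cells on the 24 h arrays are A2780, as labelled, was not tested, so every value given for 24 h is that of the arrays with this label.

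Markers of cell types moved with the groups as well. The summed intensity (log2) of 9 epithelial and Müllerian markers was 9.60 to 9.64 in A2780CP20, 11.08 to 11.15 at 24 h, 9.34 to 9.46 at 48 h and 9.60 to 9.67 in untreated A2780. EPCAM, an epithelial adhesion molecule that defines such cells, had 7.67 and 7.80 at 24 h, against 5.45 and 5.68 in untreated A2780. The rise of the sum at 24 h rests on KRT18 and EPCAM, the 2 of the 9 that were called. The median change of the 9 was 0.045, and 3 had a negative one. The sum of 5 fibroblast markers was 12.73 to 12.80 in A2780CP20, 9.39 to 9.47 at 24 h, 13.20 to 13.23 at 48 h and 13.28 to 13.31 in untreated A2780. The sum of the 4 measured leukocyte markers was 8.88 to 8.91 in A2780CP20, 8.09 to 8.31 at 24 h, 8.49 to 8.59 at 48 h and 8.40 to 8.63 in untreated A2780. Though this sum was lower at 24 h, 3 of the 4 had a positive change there. Their median change was 0.07 and the lowest was -0.6. The sum of the 4 endothelial markers lay between 7.21 and 7.43 in all groups. The part of these shifts in the results for the synthetase genes was not tested.

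**Figure D1:**
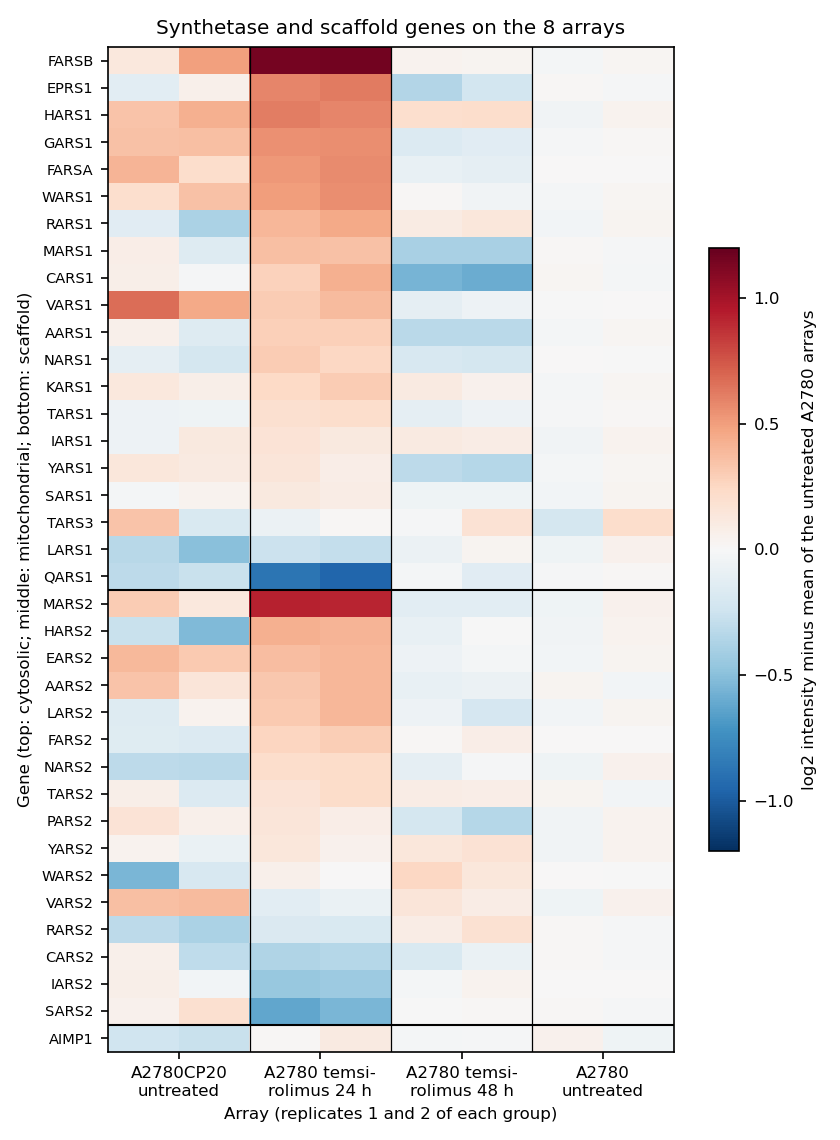
Heat map of the 37 genes (rows, cytosolic at the top, mitochondrial in the middle, AIMP1 at the bottom) on the 8 arrays (columns), coloured by the log2 difference from the mean of the untreated A2780 arrays. The 2 arrays at 24 h show most cytosolic rows above untreated A2780, with QARS1 as the strongest exception at a change of -0.92, while the arrays at 48 h lie close to untreated A2780.

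At 24 h of temsirolimus, synthetase transcripts were mostly higher than in untreated A2780. Of the 37 genes, 18 rose and 3 fell, or 48.6% and 8.11% of them, against 14.9% of all genes called higher and 15.3% called lower. Their median change was 0.27, against 0.01 over all genes. In RNA from bulk cultures, a change in the mix of cells and a change in RNA per cell cannot be told apart. Among the cytosolic enzymes 12 of 20 rose and 1 fell, with a median change of 0.32. Among the mitochondrial ones 6 of 16 rose and 2 fell, with a median of 0.15. The number called higher depends on each single array: it was 8 without 24 h replicate 1, 7 without 24 h replicate 2, 7 without untreated A2780 replicate 1 and 8 without untreated A2780 replicate 2, while 3 genes were called lower in each of these fits. The share of all genes called was also smaller in those fits, 19.7% to 21.3%, against 30.1% with all arrays.

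The largest change among the cytosolic enzymes was in FARSB, the beta subunit of the phenylalanine enzyme. FARSB had 11.46 and 11.47 at 24 h, against 10.29 and 10.34 in untreated A2780. It rose by 1.15 ± 0.12 (SE, n = 2 arrays per group), or 2.22-fold, with a limma adjusted p of 1.7e-04. The 24 h arrays lay above all the other 6, among which A2780CP20 replicate 2 came nearest with 10.81. Its partner FARSA, the alpha subunit that holds the catalytic site, rose by 0.55 ± 0.10 at 24 h.

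Within the multisynthetase complex, the enzymes moved in different directions. EPRS1, which charges both glutamate and proline tRNAs, had 11.81 and 11.84 at 24 h, against 11.23 and 11.21 in untreated A2780. It rose by 0.61 ± 0.10, or 1.52-fold (limma adjusted p 0.002). QARS1, the glutamine enzyme, had 10.43 and 10.36 at 24 h, against 11.30 and 11.32 in untreated A2780. It fell by 0.92 ± 0.09, and was 1.89-fold lower (limma adjusted p 1.0e-04), and its 24 h arrays were the lowest of all 8. QARS1 was the only cytosolic enzyme called lower at 24 h. RARS1 (arginine, 0.42 ± 0.10), MARS1 (methionine, 0.36 ± 0.10) and KARS1 (lysine, 0.27 ± 0.09) also rose. LARS1 (leucine) had a change of -0.28 (limma adjusted p 0.069) and IARS1 (isoleucine) one of 0.14 (adjusted p 0.33), and neither was called. In all, 4 of the 7 enzymes of the complex rose and 1 fell, with a median of 0.27, while 8 of the 13 cytosolic enzymes outside it rose and none fell, with a median of 0.34.

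AIMP1, the scaffold subunit that also has a secreted form, was not called at 24 h. It had 8.50 and 8.59 at 24 h, against 8.54 and 8.43 in untreated A2780, so that the groups overlapped (0.06 ± 0.09, limma adjusted p 0.68). A2780CP20 had 8.25 and 8.22, below both untreated arrays by 0.25 on average, a difference that was not called (adjusted p 0.09). At 48 h AIMP1 had 8.46 and 8.47, between the untreated arrays.

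Outside the complex, HARS1 had 10.84 and 10.82 at 24 h, against 10.19 and 10.27 in untreated A2780. It rose by 0.60 ± 0.09, or 1.52-fold (limma adjusted p 0.001), and both 24 h arrays lay above every other array. GARS1, the glycine enzyme of both cytosol and mitochondria, rose by 0.56 ± 0.08, and WARS1, the tryptophan enzyme, by 0.53 ± 0.09. CARS1 (cysteine, 0.35 ± 0.09), VARS1 (valine, 0.34 ± 0.10) and NARS1 (asparagine, 0.28 ± 0.09) rose less. The cytosolic enzymes AARS1 (alanine, 0.29), TARS1 (threonine, 0.21), YARS1 (tyrosine, 0.11), SARS1 (serine, 0.10) and TARS3 (a second threonine enzyme, -0.03) were not called at 24 h. For AARS1 the arrays did not overlap and the limma adjusted p was 0.054.

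The mitochondrial enzymes at 24 h ranged from -0.58 to 0.92. MARS2, the mitochondrial methionine enzyme, had 9.48 and 9.47 at 24 h, against 8.51 and 8.61 in untreated A2780. It rose by 0.92 ± 0.10, or 1.89-fold (limma adjusted p 1.5e-04), and no other array exceeded 8.86. HARS2 (0.41 ± 0.11), EARS2 (0.39 ± 0.09), AARS2 (0.36 ± 0.10), LARS2 (0.35 ± 0.10) and FARS2 (0.28 ± 0.08) rose too, the enzymes for histidine, glutamate, alanine, leucine and phenylalanine.

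SARS2, the mitochondrial serine enzyme, went the other way. It had 8.35 and 8.43 at 24 h, against 8.99 and 8.96 in untreated A2780, the lowest values of the 8 arrays. It fell by 0.58 ± 0.09 and was 1.5-fold lower (limma adjusted p 0.0015). IARS2, for isoleucine, fell by 0.45 ± 0.09 (adjusted p 0.0049). CARS2, the cysteine enzyme, had a change of -0.35 with adjusted p 0.063 and was not called. NARS2 (0.22), TARS2 (0.19), PARS2 (0.11), YARS2 (0.09), WARS2 (0.03), VARS2 (-0.10) and RARS2 (-0.17) were not called either.

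**Figure D2:**
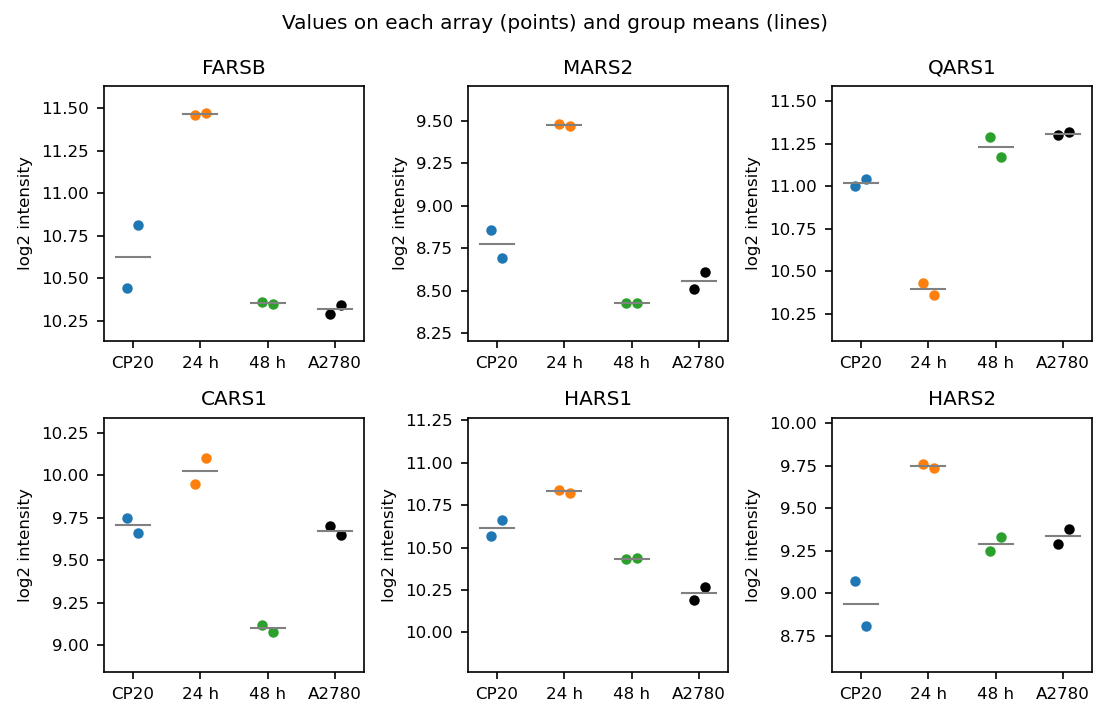
Log2 intensity (vertical axes, each with its own range) of FARSB, MARS2, QARS1, CARS1, HARS1 and HARS2 on each array (points), with group means as lines. The groups are A2780CP20, 24 h, 48 h and untreated A2780 from left to right. FARSB, MARS2, HARS1 and HARS2 are highest and QARS1 is lowest at 24 h. HARS2 is lowest in A2780CP20, and CARS1 is lowest at 48 h, with 9.12 and 9.08.

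In A2780CP20 the same enzymes split in both directions. Of the 37 genes, 5 were higher than in A2780 (VARS1, HARS1, VARS2, GARS1 and EARS2) and 4 were lower (LARS1, HARS2, RARS2 and NARS2). These are 13.5% and 10.8% of them, against 6.37% of all genes called higher and 12% called lower. The median change was 0.01, against 0.03 over all genes. Of the 20 cytosolic enzymes 3 were higher and 1 lower, and of the 16 mitochondrial ones 2 were higher and 3 lower. Under quantile normalization 7 of the 37 were called higher and 1 lower, with 19% of all genes called in either direction. With only the A2780CP20 and untreated A2780 arrays in the fit, limma called 0 higher and 0 lower, while 6 were higher and 6 lower at an unadjusted p under 0.05. With all arrays 9 were higher and 8 lower at that unadjusted threshold, against 14.6% and 18.6% of all genes. The counts were also 0 and 0 without untreated A2780 replicate 1 (unadjusted 6 higher and 5 lower) and without untreated A2780 replicate 2 (7 and 6). They were 6 and 4 without A2780CP20 replicate 1, and 8 and 5 without A2780CP20 replicate 2. The share of all genes called moved as well: it was 5.55% with 2 groups, 6.55% and 5.29% without untreated A2780 replicates 1 and 2, and 16.1% and 30.1% without A2780CP20 replicates 1 and 2, against 18.4% with all arrays.

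Without both 24 h arrays, which serve here only to estimate the spread, VARS1, HARS1, VARS2 and GARS1 stayed called higher and LARS1 lower, with limma adjusted p from 0.018 to 0.049. The other 4 (EARS2, HARS2, NARS2 and RARS2) were then not called.

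The valine enzymes rose together. VARS1, the cytosolic one, had 10.78 and 10.56 in A2780CP20, against 10.10 and 10.11 in A2780. It rose by 0.56 ± 0.10, or 1.48-fold (limma adjusted p 0.0077), and A2780CP20 was the highest of the 4 groups. VARS2, its mitochondrial counterpart, had 8.64 and 8.65 in A2780CP20, against 8.22 and 8.33 in A2780. It rose by 0.37 ± 0.09 (adjusted p 0.024), and again no array of another group was as high. GARS1 had 11.95 and 11.96 in A2780CP20, against 11.59 and 11.61 in A2780, a rise of 0.35 ± 0.08 (adjusted p 0.021). EARS2 rose by 0.35 ± 0.09 (adjusted p 0.027).

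LARS1, which charges leucine and has been described as a leucine sensor upstream of mTORC1, had 11.29 and 11.12 in A2780CP20, against 11.57 and 11.67 in A2780. It fell by 0.41 ± 0.10 (limma adjusted p 0.023), and the 24 h arrays at 11.36 and 11.33 lay between the groups. The histidine neighbours moved apart. HARS1 had 10.57 and 10.66 in A2780CP20, against 10.19 and 10.27 in A2780, and rose by 0.39 ± 0.09 (adjusted p 0.019). HARS2 had 9.07 and 8.81 in A2780CP20, against 9.29 and 9.38 in A2780, and fell by 0.40 ± 0.11 (adjusted p 0.038). Neither gene's groups overlapped. HARS2 lost its call under quantile normalization, with only the 2 groups in the fit and without both 24 h arrays. Leaving out 1 array at a time moved its change between -0.525 and -0.265, and the call was lost in some of these fits. The proteins of HARS1 and HARS2 are related in sequence, and whether probes for 1 of them also read transcripts of the other was not tested. RARS2 and NARS2, the mitochondrial enzymes for arginine and asparagine, fell by 0.34 ± 0.09 and 0.32 ± 0.09.

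Among those called in neither direction in A2780CP20, QARS1 came nearest on the lower side, with a change of -0.29 (limma adjusted p 0.057), and FARSA on the higher side, with 0.31 (adjusted p 0.058). The comparisons of A2780CP20 and of 24 h with A2780 share the 2 untreated arrays, so their errors are not independent. EARS2, GARS1, HARS1 and VARS1 were called higher in both, which is 4 of the 5 called higher in A2780CP20 and 4 of the 18 called higher at 24 h. Over all 18417 genes, 1174 were called higher in A2780CP20 and 2738 at 24 h. How many of all genes were called higher in both is not given here, so the overlap has no background to be read against. HARS2 was lower in A2780CP20 and higher at 24 h.

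At 48 h of temsirolimus no synthetase gene was called: limma gave 0 higher and 0 lower of 37, where 0.163% and 0.0163% of all genes were called. At an unadjusted p under 0.05 there were 1 higher and 7 lower, against 4.45% and 6.65% of all genes. The median change was -0.04 for the 37, -0.08 for the cytosolic and -0.02 for the mitochondrial enzymes, against -0.03 over all genes. The arrays of both groups lay apart with 48 h higher for 11 genes and with 48 h lower for 17, against 19.6% and 27.2% of all genes. Of the 17, 12 were among the 20 cytosolic enzymes.

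CARS1, the cytosolic cysteine enzyme, had the smallest p. It had 9.12 and 9.08 at 48 h, against 9.70 and 9.65 in untreated A2780, and the 48 h arrays were the lowest of the 8. The change was -0.57 ± 0.09, or 1.49-fold lower, with a limma adjusted p of 0.083, which is not a call. It was called in a fit whose prior follows intensity (adjusted p 0.019) and in one without the dimmest 25% of genes (adjusted p 0.049). MARS1 had 10.89 and 10.89 at 48 h, against 11.29 and 11.26 in untreated A2780, with a change of -0.39 ± 0.10 (adjusted p 0.23), and its 48 h arrays too were the lowest. The other genes with an unadjusted p under 0.05 were YARS1 (-0.33), AARS1 (-0.32), EPRS1 (-0.28), PARS2 (-0.28) and NARS1 (-0.20) on the lower side and HARS1 (0.20) on the higher side. Without both 24 h arrays limma again gave 0 and 0, with 0 higher and 6 lower at an unadjusted p under 0.05.

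**Figure D3:**
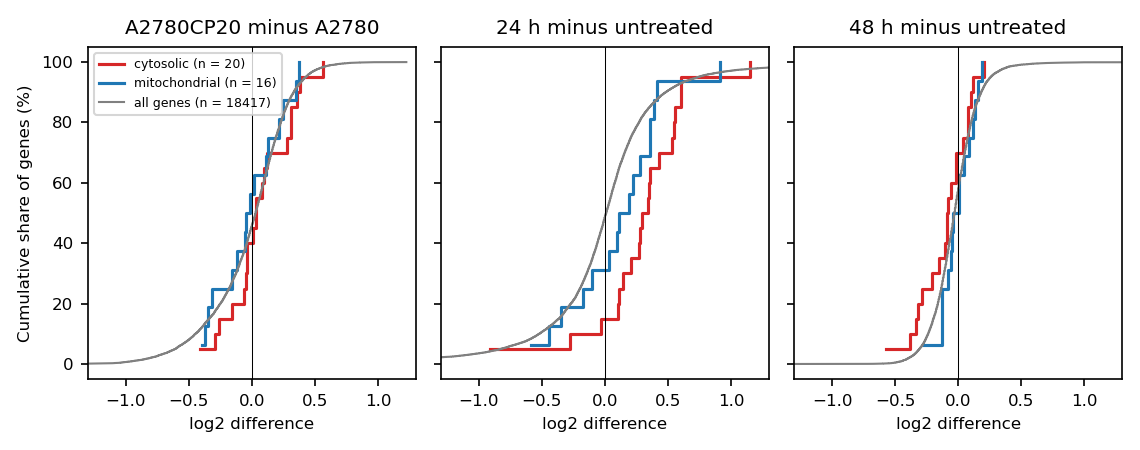
Cumulative share of genes (vertical axis, percent) against the log2 difference from untreated A2780 (horizontal axis) for cytosolic enzymes, mitochondrial enzymes and all 18417 genes, in A2780CP20, at 24 h and at 48 h from left to right. At 24 h the curve of the cytosolic enzymes lies to the right of all genes, with medians of 0.32 and 0.01, and in the other panels the curves run close together.

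Set against each other, 48 h and 24 h of treatment differed for most of the family. Of the 37 genes 4 were higher and 20 lower at 48 h than at 24 h, or 10.8% and 54.1%, against 15.2% and 15.7% of all genes. The cytosolic enzymes had a median of -0.43 with 13 of 20 lower and 1 higher. The mitochondrial ones had -0.17 with 7 of 16 lower and 3 higher, and all genes had a median of -0.06. Of the 13 cytosolic enzymes outside the complex, 11 were lower at 48 h, and of the 7 inside it 2 were lower and 1 was higher. Leaving out 1 array at a time moved the median of the cytosolic enzymes between -0.44 and -0.4275. AARS1, TARS1, YARS1, PARS2 and NARS2, none of which was called at 24 h against untreated A2780, were lower at 48 h than at 24 h.

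AARS1 had 11.45 and 11.45 at 48 h and 12.06 and 12.06 at 24 h, with untreated A2780 between them at 11.75 and 11.79. Its difference between 48 h and 24 h was -0.61 ± 0.10 (limma adjusted p 0.0016). EPRS1, CARS1 and MARS1 had the same order, with untreated A2780 between the treatment times. Of the 18 genes called higher at 24 h, 13 had a negative change at 48 h against the shared untreated arrays. So did 23 of all 37 genes, and 10551 of the 18417 genes measured. QARS1 (0.83), SARS2 (0.59), IARS2 (0.46) and RARS2 (0.31) were higher at 48 h than at 24 h.

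The 24 h arrays were also set against A2780CP20. The untreated A2780 arrays do not enter these differences, though they share in the estimate of the spread behind the calls. Here 15 genes were higher at 24 h and 4 were lower (QARS1, SARS2, VARS2 and IARS2), or 40.5% and 10.8%, against 17.8% and 15.9% of all genes. The median was 0.21 for the 37 genes and -0.03 for all genes. FARSB was higher at 24 h by 0.84 ± 0.12, HARS2 by 0.81 ± 0.11, MARS2 by 0.70 ± 0.10, RARS1 by 0.68 ± 0.10 and EPRS1 by 0.64 ± 0.10 (limma adjusted p from 0.00061 to 0.0015). AIMP1, which was not called against untreated A2780, was higher at 24 h than in A2780CP20 by 0.31 ± 0.09 (adjusted p 0.028). With only these 2 groups in the fit, 8 genes were called higher. That fit called 24.1% of all genes in either direction, against 33.7% with all arrays. Leaving out 1 array at a time moved the median change of the cytosolic enzymes between 0.2125 and 0.2325.

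The cytosolic enzymes were then compared with the mitochondrial ones for the same amino acid, over 18 pairs. EPRS1 stands in the pairs for glutamate (EARS2) and proline (PARS2), FARS2 is paired with both FARSA and FARSB, and TARS2 with both TARS1 and TARS3, so the pairs are not independent, and no test was made on them. At 24 h the change of the cytosolic enzyme was above that of its partner in 14 pairs and below it in 4, with a median difference of 0.24. In A2780CP20 it was above in 11 and below in 7 (median 0.105), and at 48 h above in 3 and below in 15 (median -0.145). The treatment times share the untreated arrays.

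Single pairs at 24 h differed in size and direction. For phenylalanine, FARSB changed by 1.15 and FARS2 by 0.28. For cysteine CARS1 had 0.35 and CARS2 -0.35, for serine SARS1 had 0.10 and SARS2 -0.58, and for arginine RARS1 had 0.42 and RARS2 -0.17. The exceptions were leucine, with LARS1 at -0.28 and LARS2 at 0.35, methionine, with MARS1 at 0.36 and MARS2 at 0.92, the pair of TARS3 at -0.03 and TARS2 at 0.19, and alanine, with AARS1 at 0.29 and AARS2 at 0.36. In A2780CP20 the widest pairs were histidine, with HARS1 at 0.39 and HARS2 at -0.40, and tryptophan, with WARS1 at 0.28 and WARS2 at -0.37. Neither tryptophan enzyme was called in A2780CP20. At 48 h the widest pairs were tyrosine, with YARS1 at -0.33 and YARS2 at 0.15, and cysteine, with CARS1 at -0.57 and CARS2 at -0.13.

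The same contrast holds array by array. The median deviation of the cytosolic enzymes from the untreated mean, minus that of the mitochondrial ones, was 0.14 and 0.18 on the 24 h arrays. It was 0.02 and 0.11 on the A2780CP20 arrays and -0.04 and -0.07 on the 48 h arrays. The untreated arrays had -0.005 and 0.005, which mirror each other by construction because their own mean is the reference. Under quantile normalization the difference between the medians at 24 h was smaller, 0.12 in place of 0.16.

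**Figure D4:**
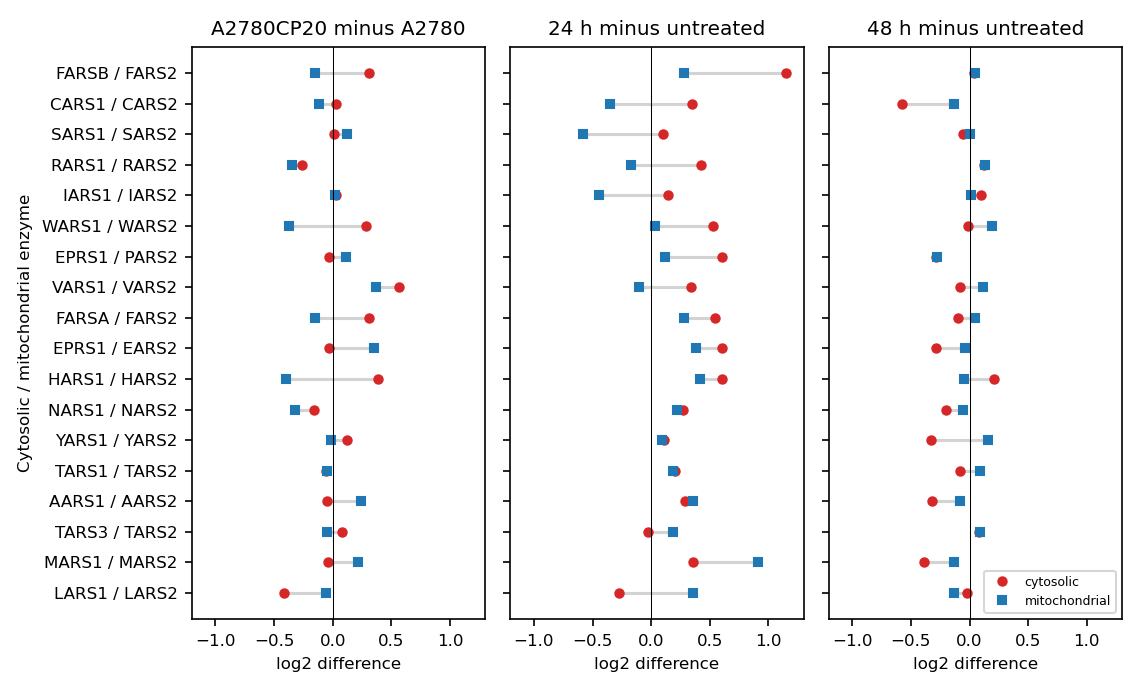
Log2 difference from untreated A2780 (horizontal axis) of each cytosolic enzyme and its mitochondrial partner (rows, joined by a line) in A2780CP20, at 24 h and at 48 h from left to right. At 24 h the cytosolic point lies to the right in 14 of 18 pairs, and at 48 h in 3 of 18.

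The changes were finally set beside the promoter letters printed above. Among the 16 cytosolic enzymes with a promoter window, 4 of the 7 that hold TGATGNAA were called higher at 24 h, with a median change of 0.29. Of the 9 without it 7 were called higher and 1 lower, with a median of 0.53, where 14.9% and 15.3% of all genes were called. At 48 h the median change was -0.20 with the letters and -0.01 without them. All but IARS1 of the 7 had a negative change and 48 h arrays below the untreated ones, while 5 of the 9 without the letters had a negative change and 4 had arrays lying apart on the lower side, as did 27.2% of all genes. None of these genes was called at 48 h. Between 48 h and 24 h, 6 of the 7 with the letters were called lower (median -0.61). Of the 9 without them 5 were called lower and 1 higher (median -0.40), against 15.7% and 15.2% of all genes. In A2780CP20 the medians were -0.04 with and 0.10 without the letters. These groups of genes were not tested against each other.

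**Figure D5:**
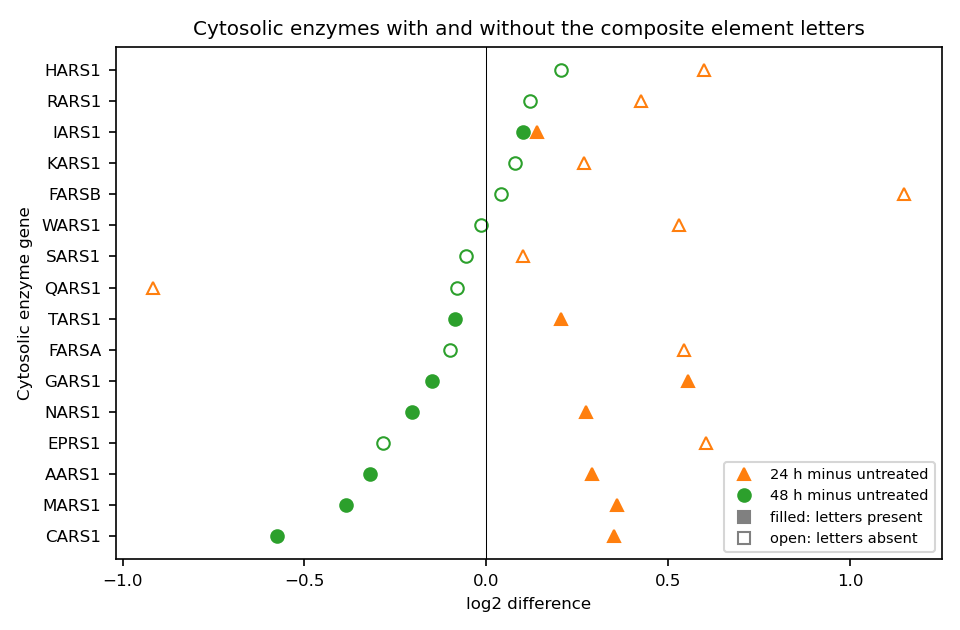
Log2 difference from untreated A2780 (horizontal axis) of the 16 cytosolic enzymes with a promoter window, at 24 h and at 48 h, with genes that hold the TGATGNAA letters marked apart from those that do not. At 48 h the 7 genes with the letters have a median of -0.20, and at 24 h both sets lie mostly to the right of 0.

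Other genes of the pathway were described from lists of the tRNA cycle and of amino acid supply. Their counts stand against 6.37% of all genes called higher and 12% called lower in A2780CP20, and against 14.9% and 15.3% at 24 h. Of 18 genes of the ATF4 arm of the stress response, 4 were higher and 1 lower in A2780CP20 (median 0.08), and 7 were higher and 2 lower at 24 h (median 0.30). TRIB3, a pseudokinase induced by ATF4, was higher in both, by 0.48 ± 0.12 and 0.81 ± 0.12. ATF5, a related factor, was higher in A2780CP20 by 0.74 ± 0.11. At 24 h EIF2S1, the alpha subunit of the initiation factor eIF2, rose by 1.00 ± 0.09 and DDIT3, which encodes CHOP, by 0.75 ± 0.09. SESN2, an inhibitor of mTORC1 induced by stress, was higher in A2780CP20 by 0.48 ± 0.11 and fell by 0.70 ± 0.11 at 24 h. The ATF4 transcript itself had changes of 0.06 in A2780CP20, 0.28 at 24 h (limma adjusted p 0.062) and 0.00 at 48 h, and was not called.

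Amino acid carriers bring the substrates of the synthetases into the cell. Of 13 carriers, 3 were higher and 1 lower in A2780CP20 (median 0.12), and 6 were higher and 3 lower at 24 h (median 0.21). In A2780CP20 SLC7A5, the carrier LAT1 for large neutral amino acids, rose by 1.13 ± 0.09 and SLC1A5, the glutamine carrier ASCT2, by 0.85 ± 0.11, while SLC38A2 fell by 0.66 ± 0.12. At 24 h SLC7A11, the cystine carrier xCT, rose by 2.42 ± 0.13 and SLC38A1, a glutamine carrier, by 1.04 ± 0.10, while SLC43A1, another carrier of large neutral amino acids, fell by 1.53 ± 0.09. Of 14 enzymes that make amino acids, 2 were higher and 2 lower in A2780CP20 (median 0.04), and 3 were higher and 2 lower at 24 h (median 0.10). As shares, 3 of 14 higher and 2 of 14 lower are close to the 14.9% and 15.3% of all genes at 24 h. PHGDH, the first enzyme of serine synthesis, fell by 0.65 ± 0.10 and CTH, which makes cysteine, by 0.88 ± 0.12 at 24 h.

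Genes that process or modify tRNA had a share called higher at 24 h of 13 of 33, with 2 lower and a median of 0.26. METTL1, the methyltransferase that makes 7-methylguanosine in tRNA, rose by 0.93 ± 0.10. The RNase P subunits differed in direction, since RPP30 rose by 1.32 ± 0.10 and RPP25 fell by 1.40 ± 0.14. In A2780CP20 5 of the 33 were higher and 7 lower (median -0.06), among them ELP3, the catalytic subunit of Elongator, which fell by 0.76 ± 0.09. Of 20 genes of RNA polymerase III and its factors, which transcribe tRNA genes, 4 were higher and 2 lower at 24 h (median 0.11) and 3 were higher and 1 lower in A2780CP20 (median 0.05). The shares of all genes at 24 h were again 14.9% and 15.3%. POLR3G, an alternative subunit of that polymerase, rose by 1.59 ± 0.20 at 24 h.

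Of 17 translation elongation factors 5 were higher and 3 lower at 24 h (median 0.02; 14.9% and 15.3% of all genes), and 2 were higher and 1 lower in A2780CP20 (median -0.005). Of 8 genes of tRNA quality control and the mitochondrial amidotransferase, 2 were higher and 2 lower at 24 h (median -0.04), and none was higher and 2 were lower in A2780CP20 (median -0.14). These were SEPSECS, which completes selenocysteine on its tRNA and fell by 1.09 ± 0.10, and DTD2, a deacylase, which fell by 0.77 ± 0.09. At 48 h limma called no gene of these 7 lists at the adjusted threshold. At an unadjusted p under 0.05, 5 genes of amino acid synthesis were lower and 1 higher, 3 carriers, 2 genes of the ATF4 arm and 1 elongation factor were lower, and 2 tRNA processing genes were higher, where 4.45% of all genes were higher and 6.65% lower. The medians of the lists at 48 h lay between -0.12 for amino acid synthesis and 0.045 for the ATF4 arm and for the elongation factors. PHGDH had the smallest p of the amino acid synthesis list there, with a change of -0.51 (limma adjusted p 0.12). In the other lists the smallest p belonged to CEBPG (-0.23), a partner of ATF4, to the glycine carrier SLC6A9 (-0.35), METTL1 (0.33), POLR3A (0.20), EEFSEC (-0.23) and MTFMT (0.15).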

How the data were processed

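Total RNA was labelled with biotin and hybridized to Affymetrix GeneChip Human Gene 1.0 ST arrays, 1 sample per array, per the labels. The deposited values were taken as log2 intensities, since they lie between 1.8 and 14.99 with near-equal medians, and the authors gave them with 2 decimals. The submitters' processing notes name Partek, with no version or role. The steps of background correction, normalization and probe summary are unknown, being not given in the sources used here. Real differences between arrays may have been reduced before deposit.

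Of 33297 probe sets, 19460 name 1 gene, 1754 name several and 12083 are unnamed here. The probe set with the highest mean stood for a gene with several, which applied to VARS1 and VARS2 among the 37. Symbols were updated by gene number to RefSeq (GRCh38.p14), which matched 18389 of 18417 genes. Values of different probe sets were not compared as levels.

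limma 3.58.1 (R 4.3.3) fitted 1 coefficient per group to all 8 arrays, with empirical Bayes moderation (degrees of freedom: 4 residual, 4.48 prior). Tests were two-sided, and p-values were adjusted over all genes by the Benjamini-Hochberg method. The fit was tested on simulated data. The genes, lists and alternatives were chosen with earlier results of these data known. Each of the 37 genes is named. Values on each array are given for up to 6 called genes with the largest change in each comparison with untreated A2780, for the 2 with the smallest p at 48 h, for AIMP1 and for AARS1, which was added after its values were seen. From the other lists up to 3 called genes with the largest change were named, and the ATF4 transcript was added. The 7 stretches of letters beside that of GARS1, the HARS1 and HARS2 interval and their display were chosen after the values were seen. The precision is limited by the 2 arrays per group.

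Alternatives were quantile normalization, median centring, the mean of a gene's probe sets, a filter against the dimmest 25% of genes, testing every probe set, fits of only the 2 groups compared, leaving out both 24 h arrays, other priors, a replicate block, and leaving out each array.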

Additional observations from a re-analysis of the deposited data

Results flagged for a closer look

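The change from untreated A2780 differed between the arrays labelled 48 h and 24 h for 24 of the 37 genes, by limma's test of 48 h minus 24 h, which is the test of the difference itself because the untreated arrays are shared. The lower ones at 48 h were FARSB (-1.11), MARS2 (-1.04), CARS1 (-0.92), EPRS1 (-0.89), MARS1 (-0.74), GARS1 (-0.71), FARSA (-0.64), AARS1 (-0.61), WARS1 (-0.54), LARS2 (-0.48), NARS1 (-0.48), HARS2 (-0.46), AARS2 (-0.44), YARS1 (-0.44), VARS1 (-0.43), EARS2 (-0.43), HARS1 (-0.40), PARS2 (-0.39), TARS1 (-0.29) and NARS2 (-0.28). The higher ones were RARS2 (0.31), IARS2 (0.46), SARS2 (0.59) and QARS1 (0.83). All 24 rest on the 2 arrays labelled 24 h, which stand apart from the other 6 and whose identity as A2780 was not tested, and 31% of all genes were called in the same comparison. With 2 arrays per group, single outlying arrays could not be tested for.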

How the results depend on the processing

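The changes at 24 h of the 6 genes with the largest calls (FARSB, MARS2, QARS1, EPRS1, HARS1 and SARS2) kept direction and call under every alternative run, whereas the 6 of A2780CP20 kept direction but lost the call in 21 combinations of gene and alternative and kept it in 57. Counts moved as follows, and the causes were not tested beyond the smaller number of arrays. Quantile normalization left 7 genes higher and 1 lower in A2780CP20 (5 and 4 before), with 19% of all genes called (18.4% before). It took the cytosolic minus mitochondrial median change to 0.117 at 24 h (0.1625 before), to -0.197 for 48 h minus 24 h (-0.2625) and to 0.0081 for 24 h minus A2780CP20 (0.0825). At 24 h 5 genes were called lower (3 before) without the dimmest genes, with only 2 groups in the fit and with an intensity trend in the prior. The same fits, in this order, called 19, 19 and 20 genes higher (18 before). They called 39.9%, 34.8% and 31.9% of all genes (30.1% before). At 48 h 1 gene (CARS1) was called lower without the dimmest genes and with the trend, which called 68 genes in all (33 before). With only 2 groups in the fit, A2780CP20 had 0 genes higher and 0 lower of 1022 called in all. In such a fit 24 h had 8 genes higher than A2780CP20 (15 before), with 24.1% of all genes called (33.7% before). Without both 24 h arrays 4 genes were higher and 1 lower in A2780CP20 (5 and 4 before), with 13.8% of all genes called (18.4% before).

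Leaving out 1 array at a time gave these ranges. For A2780CP20 against A2780, 974 to 5543 genes were called in all, 0 to 8 of the 37 were higher and 0 to 5 lower. The cytosolic median ranged from -0.0175, a changed sign, without untreated A2780 replicate 1, to 0.075, and the cytosolic minus mitochondrial difference from 0.0175 to 0.105. For 24 h against A2780, 3621 to 3919 genes were called in all and 7 to 8 of the 37 were higher. For 48 h against A2780 4 to 6 genes were called in all. For 48 h against 24 h, 3715 to 3838 were called in all and 12 to 15 of the 37 were lower. For 24 h against A2780CP20, 3995 to 7088 were called in all and 7 to 14 of the 37 were higher, with the cytosolic minus mitochondrial difference between 0.005 and 0.1325.

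Whether the shared replicate numbers pair the samples could not be decided, since each group gives a single difference between replicates 1 and 2. Across genes, these differences correlated at 0.117 to 0.181 among untreated A2780, A2780CP20 and 48 h. Between 24 h and the other groups the correlations were 0.002 to 0.039. With a replicate block 17 genes were higher and 3 lower at 24 h, 5 higher and 4 lower in A2780CP20, and 0 and 0 at 48 h, with 5642, 3555 and 35 genes called in all. With 2 arrays per group, small changes cannot be resolved, while no value of the 37 genes lay below the lower quartile of its array.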
